A study of Homo sapiens with 12 samples.

Results

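The loci described here are those of 6 genes that mark epithelial or mesenchymal identity: CDH1, EPCAM and GRHL2 on the epithelial side, and CDH2, CDH11 and VIM on the mesenchymal side. Open chromatin was measured by ATAC-seq, in which the Tn5 transposase inserts adapters into accessible DNA and a peak marks a pile-up of insertions. Members were the peaks within 50 kb of a gene body on hg19, without regard to their height or to the line in which they were called. They numbered 127 of the 170706 peaks in the 6 deposited lists, and 61 of the 84664 regions left after peaks of any libraries that overlapped by at least 1 base were merged. ARPE-19, a spontaneously arisen line of human retinal pigment epithelium grown in medium with fetal bovine serum, had 3 libraries. H7, a line of human embryonic stem cells grown in mTeSR Plus, had 3 libraries as the state against which ARPE-19 was compared. Each library was made from 500000 cells, both media held penicillin-streptomycin, the labels name no treatment, and each line stands for its cell type alone. The labels call the libraries triplicates without naming separate cultures, so the spread between them may be technical. Markers of either line beyond these 6 genes were not analysed here.

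E-cadherin, encoded by CDH1, holds epithelial cells together through calcium-dependent contacts, whereas N-cadherin (CDH2) and cadherin-11 (CDH11) are typical of neural and mesenchymal cells. Replacement of the first by the others is known as the cadherin switch of the epithelial-mesenchymal transition. EPCAM encodes an adhesion glycoprotein of epithelia, GRHL2 a transcription factor that keeps epithelial genes such as CDH1 active, and VIM the intermediate filament protein of mesenchymal cells. Human embryonic stem cells are known to express CDH1 and EPCAM, and retinal pigment epithelium is known for N-cadherin at its junctions.

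Promoter sequences are shown for CDH2 and VIM, because ARPE-19 peaks lay at the starts of both genes and RefSeq sequence was at hand for 2 of the 6 genes. Each runs from 250 bases before to 50 bases after the gene start in RefSeq on GRCh38.p14, at chr18:28177081-28177380 on the minus strand for CDH2 and at chr10:17227991-17228290 on the plus strand for VIM. These positions are of another build than the peaks, and the start in RefSeq need not be the same base as the hg19 start used for distances. Capitals mark a GC box (GGGCGG on either strand) and, in CDH2, also a CCAAT box (CCAAT on either strand).
CDH2: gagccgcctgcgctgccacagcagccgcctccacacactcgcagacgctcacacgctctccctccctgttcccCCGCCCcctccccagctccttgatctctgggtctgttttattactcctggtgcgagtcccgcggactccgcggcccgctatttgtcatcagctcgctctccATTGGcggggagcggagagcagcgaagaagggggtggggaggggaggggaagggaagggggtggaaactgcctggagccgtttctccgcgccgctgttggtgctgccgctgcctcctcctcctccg
VIM: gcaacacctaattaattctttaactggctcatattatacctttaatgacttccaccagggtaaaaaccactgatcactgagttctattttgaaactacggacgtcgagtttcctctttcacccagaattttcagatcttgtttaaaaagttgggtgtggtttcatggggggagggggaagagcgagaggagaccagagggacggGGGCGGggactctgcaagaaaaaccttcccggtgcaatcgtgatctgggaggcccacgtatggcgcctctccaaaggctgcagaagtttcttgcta
The CDH2 promoter was rich in G and C (67.0% of its bases) with 23 CpG dinucleotides, and the VIM promoter had 48.0% and 10, where the median of 35116 RefSeq promoters was 58.7% and 14. In CDH2 the GC box began 177 bases and the CCAAT box 76 bases before the start, and in VIM the GC box began 46 bases before it. A GC box was present in 45.0% of all promoters of that table and a CCAAT box in 34.6%. CAGGTG, an E-box bound by ZEB and SNAI factors, was in neither sequence and in 20.6% of all promoters. AACCGG, the core of the site of GRHL factors, was also in neither (7.23% of all promoters), nor was TGANTCA of AP-1 (7.71%) or GGAATG of TEAD factors (14.0%). Each motif was searched on both strands, and no pair of matches overlapped.

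The lists differ in length before any gene is considered. They held 40110 to 48460 peaks in ARPE-19 and 8622 to 15351 in H7, while the genome-wide background recovered from the lists, a measure of relative depth, was 0.425 to 0.483 reads in ARPE-19 and 0.592 to 0.653 reads in H7. The fewest summit reads that a called peak had at that background were 4 in ARPE-19 and 5 to 6 in H7. A missing peak therefore means that none was called at this depth, not that the chromatin was closed. With 3 libraries against 3, the exact two-sided permutation test used for the counts below cannot give a p under 0.1, so that no comparison of libraries could pass a threshold of 0.05.

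Around the 6 genes together, ARPE-19 had more called peaks than H7 in the full lists. ARPE-19 replicates 1, 2 and 3 had 38, 32 and 39 peaks there, against 4, 8 and 6 in H7 replicates 1, 2 and 3. Every ARPE-19 library was above every H7 library. The means were 36.3 ± 3.79 and 6 ± 2 peaks (SD, n = 3 each), a difference of 30.3 (SE 2.47, exact permutation p = 0.1). The peak numbers of the lines did not overlap at 5 of the 6 loci, with ARPE-19 higher at each of the 5, and CDH1 was the exception. Over the genome, ARPE-19 was above H7 in this way in 58.4% of 10356 autosomal stretches of 250 kb that held a peak, so a gap between the lines was common. H7 was above ARPE-19 in this way at none of the 6 loci and in 1.99% of those stretches. The windows of the loci are 109 to 327 kb long and sum to 1308 kb, so these shares are for stretches of unlike length.

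**Figure D1:**
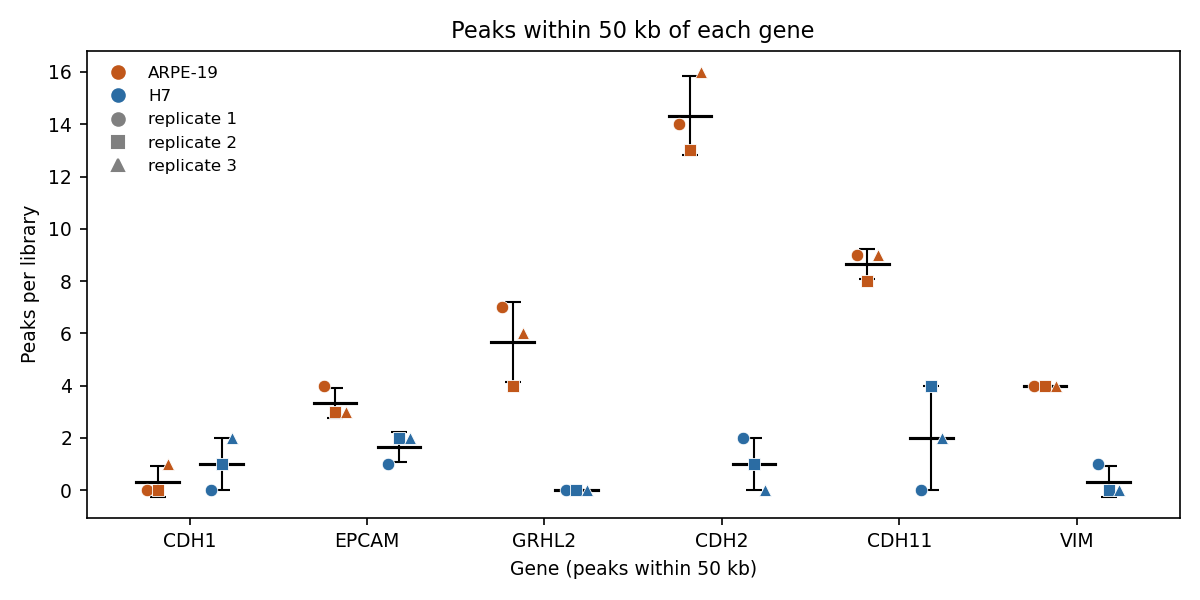
Peaks per library within 50 kb of each gene, with ARPE-19 (orange) to the left of H7 (blue), 1 point per library, and the mean and SD of 3 libraries in black. ARPE-19 libraries lie at 13 to 16 peaks at CDH2, where H7 libraries lie at 0 to 2, and the lines overlap at CDH1.

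Regions called in all 3 libraries of ARPE-19 but in none of H7, termed ARPE-19-only, made up 24 of the 61 (39.3%), and 26.0% of all merged regions of the genome. They were 9 of 20 at CDH2, 6 of 16 at CDH11, 3 of 7 at VIM, 3 of 9 at GRHL2, 3 of 6 at EPCAM and 0 of 3 at CDH1. The opposite class, H7-only, had 0 members here and held 1.82% of the genome's regions. Another 4 were called in at least 1 library of each line (6.56%), against a genome-wide share of 8.51%. Of the 52 regions with any ARPE-19 peak, 26 were called in all 3 (50%), where the genome-wide share was 40.5%. In these 26 the 3 summits lay within a median of 52.5 bases of each other (range 18 to 293).

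Once the length of each list was taken into account, the lines were apart at some loci and overlapped at others. Peak density in each window was divided by the mean autosomal density of the same library. Over the 6 windows this ratio was 1.88, 1.75 and 1.77 in ARPE-19 replicates 1, 2 and 3, and 0.579, 1.30 and 1.54 in H7 replicates 1, 2 and 3. At CDH2 it was 2.77 to 2.91 in ARPE-19 and 0 to 1.16 in H7, and at VIM it was 2.17 to 2.62 in ARPE-19 and 0 to 1.73 in H7. At CDH11 it was 1.92 to 2.09 in ARPE-19, inside the range of 0 to 3.05 in H7. At EPCAM the H7 ratios of 1.60 to 5.70 reached above the ARPE-19 ratios of 1.51 to 2.20, and at CDH1 ARPE-19 had 0 to 0.299, with 0 to 3.39 in H7. Densities of the lines were thus apart at CDH2, VIM and GRHL2 (ARPE-19 1.03 to 1.63, H7 0 in each library), and overlapped at the other loci. The H7 densities rest on few peaks, so that 1 peak moves them widely. H7 replicates 1, 2 and 3 had 0, 1 and 2 peaks at CDH1, 1, 2 and 2 at EPCAM and 1, 0 and 0 at VIM. For density over the autosomal mean, ARPE-19 was above H7 without overlap in 24.7% of the autosomal stretches of 250 kb. H7 was above ARPE-19 in 15.8% of them, and the windows again differ from them in length. With each list limited to its 8622 strongest peaks, the 6 loci held 11, 6 and 7 in ARPE-19 replicates 1, 2 and 3 and 1, 4 and 6 in H7 replicates 1, 2 and 3. The lines then overlapped, with a difference of 4.33 in their means (exact permutation p = 0.2). This limit keeps 8622 of the 40110 to 48460 peaks of an ARPE-19 list, and the whole list of H7 replicate 3.

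**Figure D2:**
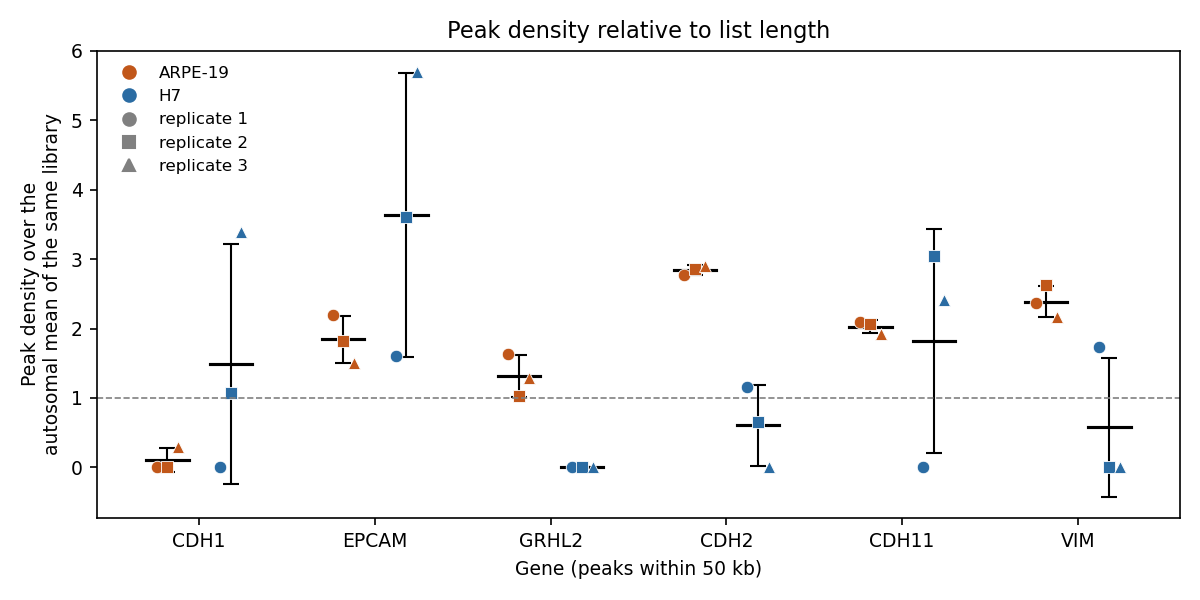
Peak density within 50 kb of each gene over the mean autosomal density of the same library, with ARPE-19 (orange) to the left of H7 (blue), mean and SD of 3 libraries in black, and the autosomal mean as a dashed line at 1. At CDH2 ARPE-19 libraries lie at 2.77 to 2.91, above the H7 libraries. At EPCAM the lines overlap, and 2 of 3 H7 libraries, with 2 peaks each, lie above ARPE-19.

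The CDH2 locus, on chromosome 18 from 25530930 to 25757445 on the minus strand, held the most regions. ARPE-19 replicates 1, 2 and 3 had 14, 13 and 16 peaks, against 2, 1 and 0 in H7 replicates 1, 2 and 3. All ARPE-19 libraries were far above all H7 libraries, with means of 14.3 ± 1.53 and 1 ± 1 peaks (SD, n = 3 each) and a difference of 13.3 (SE 1.05, exact permutation p = 0.1). Covered bases averaged 5086 ± 992 in ARPE-19 libraries, against 187 ± 187 in H7 libraries (SD, n = 3 each, exact permutation p = 0.1). Of the 9 ARPE-19-only regions, 6 lay inside the gene, 2 upstream and 1 past its end.

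The strongest of the 61 regions was the one past the end of CDH2, from 25501884 to 25502519, 254.9 kb downstream of the gene start. It had 41, 61 and 49 summit reads in ARPE-19 replicates 1, 2 and 3, which is 84.9, 133 and 115 times the genome-wide background of the same library, and no H7 peak. Its summits were within 30 bases of each other and stood at the 98.8th to 99.9th percentile of -log10 q in their lists. Among all 22042 ARPE-19-only regions of the genome, 0.658% had a mean ratio to background as high as this region (111), and the median was 30.4. The region was picked as the strongest, and the median of the 24 ARPE-19-only regions at the 6 loci was 31.7, near that of the genome.

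Only 2 CDH2 regions were shared with H7, each with 1 weak H7 peak. The region from 25666464 to 25667357, 90.1 kb inside the gene, had 12, 12 and 25 summit reads in ARPE-19 replicates 1, 2 and 3 and 7 in H7 replicate 1. The region from 25544722 to 25545199, 212.2 kb inside, had 7, 11 and 7 in ARPE-19 replicates 1, 2 and 3 and 6 in H7 replicate 2. Both H7 peaks were at or below the 10.0th percentile of their lists.

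Further CDH2 regions were singled out after their values were seen. The region from 25784012 to 25784647, -26.6 kb from the start, which is upstream, had 30, 22 and 33 summit reads in ARPE-19 replicates 1, 2 and 3. The region from 25645111 to 25645951, 111.5 kb inside the gene, had 22, 23 and 23. These and the region past the gene's end were the 3 CDH2 regions that kept a peak in all ARPE-19 libraries when each list was limited to its 8622 strongest peaks, the length of the shortest. CDH2 then had 5, 4 and 4 peaks in ARPE-19 replicates 1, 2 and 3 and 0 in each H7 library (exact permutation p = 0.1). The share of genome stretches with such a gap under this limit was not determined.

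The CDH11 locus, on chromosome 16 from 64977656 to 65155919 on the minus strand, had called regions in both lines, mostly at different places. ARPE-19 replicates 1, 2 and 3 had 9, 8 and 9 peaks, and H7 replicates 1, 2 and 3 had 0, 4 and 2. The lines did not overlap, and the ARPE-19 mean was 8.67 ± 0.577, against 2 ± 2 for H7 (SD, n = 3 each, exact permutation p = 0.1). Among the 8622 strongest peaks the numbers were 2, 1 and 2 in ARPE-19 and 0, 1 and 2 in H7, and the lines overlapped.

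Of the 6 ARPE-19-only regions at CDH11, 5 lay inside the gene, and the strongest spanned 65036070 to 65036703, 119.2 kb from the start. It had 27, 21 and 27 summit reads in ARPE-19 replicates 1, 2 and 3, a mean of 55.1 ± 8.87 times the background (SD, n = 3). The region from 65058730 to 65059053 had 16, 14 and 22 summit reads, and that from 65104595 to 65105031 had 20, 16 and 18, in the same order of replicates. All 3 regions lacked an H7 peak.

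H7 peaks at CDH11 lay mostly elsewhere. The region from 65151795 to 65152099, 3.82 kb inside the gene, had 8 and 12 summit reads in H7 replicates 2 and 3 and no ARPE-19 peak. The region from 65017857 to 65018137 was shared, with 5 summit reads in ARPE-19 replicate 1 and 9 and 7 in H7 replicates 2 and 3. H7 replicate 1 had no peak within 50 kb of CDH11.

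The VIM locus, on chromosome 10 from 17270258 to 17279592 on the plus strand, had 4 peaks in each ARPE-19 library, against 1, 0 and 0 in H7 replicates 1, 2 and 3. The means were 4 ± 0 and 0.333 ± 0.577 (SD, n = 3 each, exact permutation p = 0.1). Of the 3 ARPE-19-only regions, 1 was in the gene and 2 were upstream. The region from 17258248 to 17258536, -11.7 kb from the start, had 23, 10 and 17 summit reads in ARPE-19 replicates 1, 2 and 3. The one from 17248269 to 17248628, -21.6 kb from the start, had 14, 17 and 8. TRDMT1, a tRNA methyltransferase gene, is the neighbour on that side in RefSeq order, and the lists assign no region to a gene. Among the 8622 strongest peaks, VIM had 1, 1 and 0 peaks in ARPE-19 replicates 1, 2 and 3 and 0 in each H7 library.

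**Figure D3:**
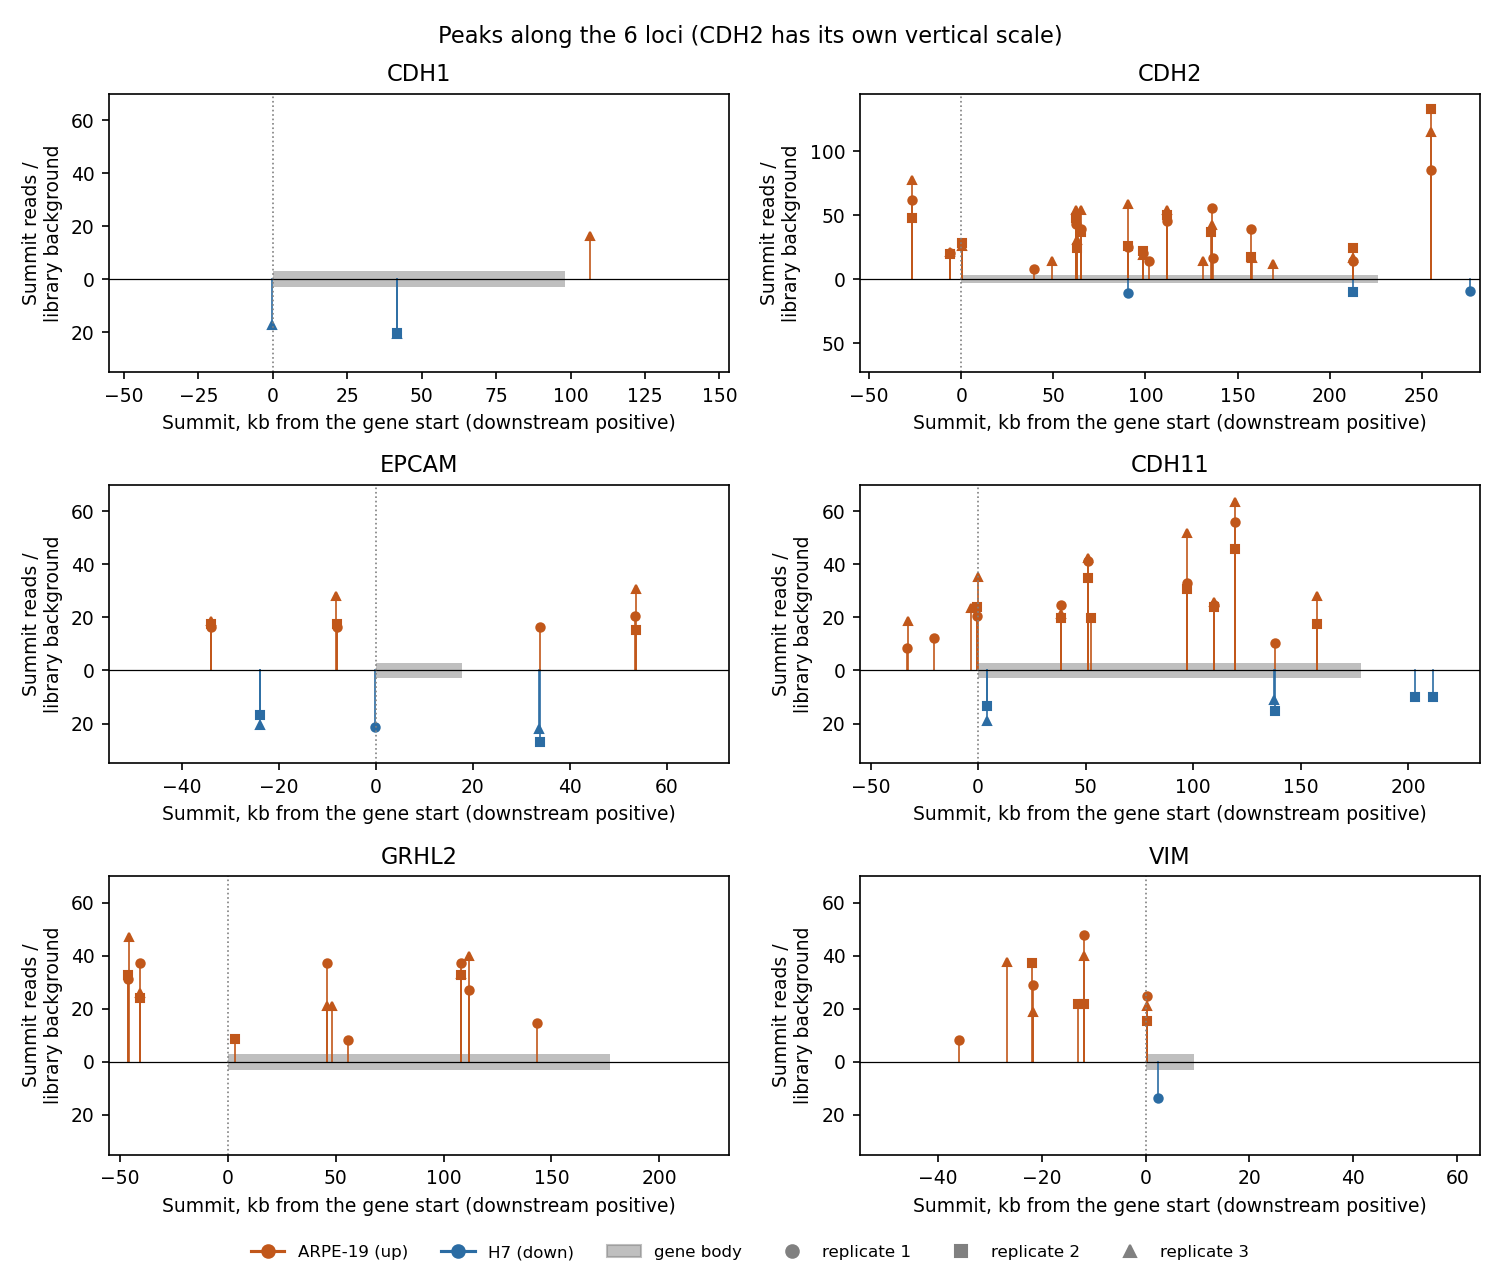
Summit position of each peak, in kb from the gene start along the direction of transcription, against its summit reads over the genome-wide background of the library, with ARPE-19 peaks (orange) drawn upward and H7 peaks (blue) downward and the gene body as a grey bar. The CDH2 region past the gene's end reaches 84.9 to 133 in ARPE-19, and CDH1 has peaks of H7 and none of ARPE-19 over its gene body.

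CDH1, on chromosome 16 from 68771195 to 68869444 on the plus strand, was nearly empty in ARPE-19. ARPE-19 replicates 1, 2 and 3 had 0, 0 and 1 peaks, and H7 replicates 1, 2 and 3 had 0, 1 and 2. The lines overlapped, and the ARPE-19 mean was 0.333 ± 0.577, against 1 ± 1 for H7 (SD, n = 3 each, exact permutation p = 0.7). None of the ARPE-19 libraries had a peak over the gene body. The region from 68812806 to 68813003, 41.6 kb inside the gene, had 12 and 13 summit reads in H7 replicates 2 and 3, at or above the 76.7th percentile of -log10 q in their lists. The start of the gene, from 68771029 to 68771215, had 11 summit reads in H7 replicate 3 alone. The single ARPE-19 peak, with 7 summit reads in replicate 3, lay past the gene's end from 68877447 to 68877711, and TANGO6 is the next protein-coding gene in that direction.

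EPCAM, on chromosome 2 from 47596287 to 47614167 on the plus strand, had peaks of both lines, of which 1 region was shared. ARPE-19 replicates 1, 2 and 3 had 4, 3 and 3 peaks, against 1, 2 and 2 in H7 replicates 1, 2 and 3. The means were 3.33 ± 0.577 and 1.67 ± 0.577 (SD, n = 3 each, exact permutation p = 0.1). Among the 8622 strongest peaks ARPE-19 had 0 in each library and H7 had 1, 2 and 2, so the order of the lines turned (exact permutation p = 0.1). This limit drops most of each ARPE-19 list and nothing from that of H7 replicate 3. How often H7 lies above ARPE-19 over the genome under this limit was not determined. A distance of 25 kb in place of 50 kb gave means of 1.33 in ARPE-19 and 1.67 in H7.

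No ARPE-19 peak lay over the EPCAM gene body. Its start, from 47596163 to 47596337, had 14 summit reads in H7 replicate 1, at the 85.0th percentile of -log10 q in that list. Upstream, from 47572219 to 47572467, H7 replicates 2 and 3 had 10 and 13 summit reads where ARPE-19 had no peak. The ARPE-19 region nearest to the gene, from 47588094 to 47588464, had 8, 8 and 12 summit reads in replicates 1, 2 and 3. Past the gene's end, the region from 47629847 to 47630291 was shared, with 8 summit reads in ARPE-19 replicate 1 and 16 and 14 in H7 replicates 2 and 3. The next region, from 47649709 to 47650181, had 10, 7 and 13 in ARPE-19 replicates 1, 2 and 3.

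GRHL2, on chromosome 8 from 102504660 to 102681954 on the plus strand, had called regions in ARPE-19 alone. ARPE-19 replicates 1, 2 and 3 had 7, 4 and 6 peaks, against 0 in each H7 library (exact permutation p = 0.1). None lay within 2 kb of the start in any library. Of the 9 regions, 3 were called in 3 of 3 ARPE-19 libraries. Upstream of the gene, the region from 102458364 to 102458793, 45.9 kb away, had 15, 15 and 20 summit reads in ARPE-19 replicates 1, 2 and 3, and that from 102463976 to 102464330, 40.3 kb away, had 18, 11 and 11. Inside the gene, the region from 102612788 to 102613033 had 18, 15 and 14. Among the 8622 strongest peaks, ARPE-19 had 3, 0 and 1 peaks and H7 had 0 in each library.

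Peaks within 2 kb of the gene starts were counted by library. CDH11 and VIM had one in 3 ARPE-19 libraries and no H7 library, and CDH2 in 2 ARPE-19 libraries and no H7 library. CDH1 and EPCAM each had one in no ARPE-19 library and 1 H7 library, and GRHL2 had none in either line. The differences at these starts were not tested, and the share of all gene starts with such peaks was not determined, so the counts stand for these genes alone.

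The peaks at the starts were of moderate height. At CDH11 they had 10, 11 and 15 summit reads in ARPE-19 replicates 1, 2 and 3, with summits 293 to 369 bases upstream of the start. At VIM they had 12, 7 and 9, with summits 295 to 322 bases downstream. At CDH2 they had 13 and 11 in ARPE-19 replicates 2 and 3, and both summits lay 227 bases inside the gene. None of these ARPE-19 peaks was among the 8622 strongest of its library, while past a -log10 q of 5 CDH2 had 2 ARPE-19 libraries with a start peak, CDH11 2 and VIM 1. The H7 peak at the start of CDH1 was lost past a -log10 q of 5, and its list holds 8622 peaks in all. H7 also had peaks just beyond 2 kb, in 2 libraries at CDH11 (above) and in replicate 1 at VIM, with 9 summit reads 2.29 kb inside the gene.

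**Figure D4:**
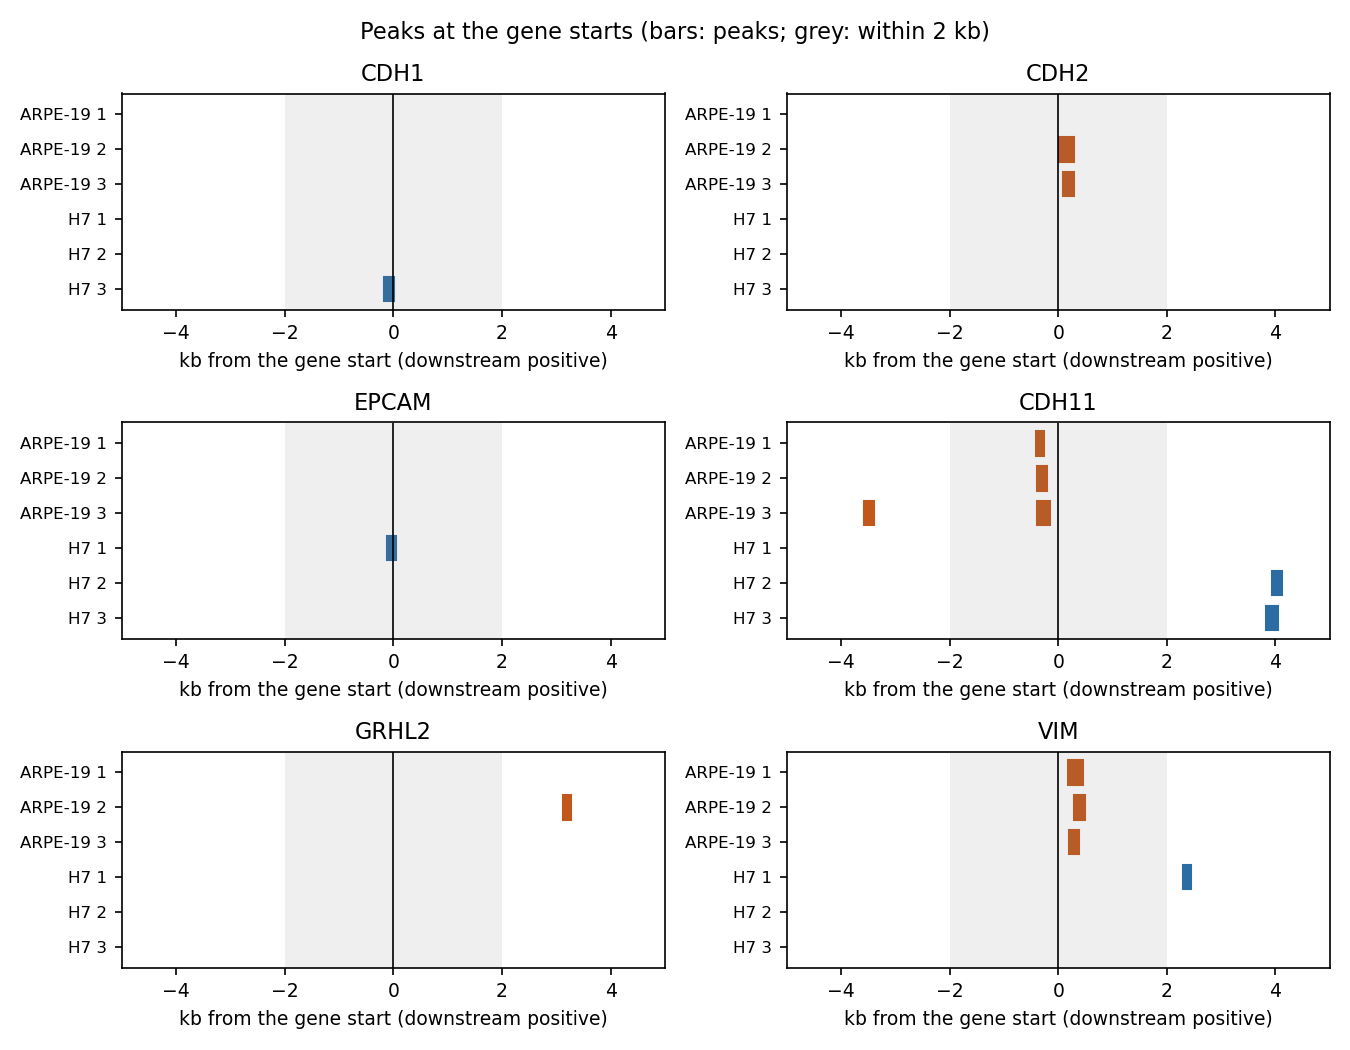
Peaks of each library (bars) within 5 kb of the 6 gene starts, with ARPE-19 libraries (orange) above H7 libraries (blue) and the 2 kb on each side of the start in grey. ARPE-19 peaks sit at the starts of CDH11 and VIM in 3 libraries and of CDH2 in 2, and H7 peaks sit at the starts of CDH1 and EPCAM in 1 library each.

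Of the 13 regions with an H7 peak, 8 were called in 1 H7 library, 5 in 2 and 0 in 3. The 5 are 38.5% of the regions, near the 31.1% of all regions with an H7 peak that were called in at least 2, and 13.1% of all such regions were called in 3. All 5 were called in replicates 2 and 3, and the 4 peaks of H7 replicate 1 were shared with no other H7 library. The 18 H7 peaks had 6 to 16 summit reads with a median of 9.5, near the median of 9 over all nuclear H7 peaks. The 109 ARPE-19 peaks had 4 to 61 with a median of 12, near the 11 over all nuclear ARPE-19 peaks. Of these 5, the 3 without any ARPE-19 peak were 1 each at CDH1, EPCAM and CDH11.

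The farthest region inside the limit of 50 kb was a CDH2 region 49.6 kb past the gene, with 6 summit reads in H7 replicate 1. The nearest outside were a VIM region at 59.5 kb and a CDH1 region at 60.2 kb, each with 4 summit reads in 1 ARPE-19 library. At 62.5 kb lay a CDH2 region with 11 to 15 summit reads in 3 ARPE-19 libraries, which the limit left out.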

How the data were processed

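ATAC-seq peak lists of 6 libraries, 3 per line, were used. The 4C samples were not analysed here. MACS2 and bedtools were used on hg19, per the submitters' processing notes, which give no versions. Aligner, duplicate removal and transposase shift are not given in the sources used here, and a missing shift would move summits by a few bases. Each library has its own list, which allows overlap of replicates. In each list the deposited columns hold a score, a fold enrichment ratio at the summit over the local background, and -log10 p and -log10 q of each peak, all computed by the authors within a library.

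Gene bodies were those of the rule on hg19, and gene starts follow from the strand, which for CDH1, CDH11, EPCAM and GRHL2 was taken from general knowledge. Exons and other genes could not be placed, since gene models of hg19 were not used here, and the planned list of further epithelial and mesenchymal genes was not run. Names of neighbours and promoters come from RefSeq on GRCh38.p14. Each named region was within 2 kb of a start, among the 3 called in most libraries at its locus (ties by the mean percentile of -log10 q), or called in at least 2 H7 libraries, except where stated. The members, lists and rules were chosen with earlier results of these data known.

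Summit reads and background were solved from the fold, (reads + 1)/(background + 1), and the Poisson -log10 p, within 0.001 for at least 99.988% of nuclear peaks per library. The most frequent background was taken as that of the genome. Summit reads may include duplicates. Lines were compared by the exact two-sided permutation test over 20 assignments, ARPE-19 minus H7, and the steps were tested on simulated data. The labels number the replicates but state no pairing of the lines. Over 10356 stretches, deviations of libraries of equal number had correlations of -0.0188 to 0.0409. Those of unequal number had -0.0527 to 0.067. No region had a peak in all 6 libraries, so the planned test of summit heights was not run. The alternatives were peaks past a -log10 q of 5, the 8622 strongest peaks of each library, other distances, stricter overlap, looser classes and leaving out each library, and one threshold on -log10 p (4.31) chosen after seeing the data. The tools were matplotlib 3.10.9, scipy 1.17.1, pandas 2.3.3 and numpy 2.4.6 under Python 3.11.15.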

Additional observations from a re-analysis of the deposited data

How the results depend on the processing

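Differences in mean peak number, ARPE-19 minus H7, kept their sign at CDH2, CDH11, VIM and GRHL2 and over the 6 loci. This held under all alternatives run for each (the block by replicate number leaves means as they are). They ran from 4.33 to 15 at CDH2 and from 4.33 to 37 over the 6 loci. Among the 8622 strongest peaks they fell to 0.667 at CDH11, 0.667 at VIM and 1.33 at GRHL2, and the lines overlapped at each of these loci. At EPCAM, 1.67 with all peaks, the difference was -1.67 among the 8622 strongest peaks of each library, -0.333 with 25 kb and -0.333 with the gene body alone, and it was 0 past a -log10 q of 5. Its covered bases, 359 more in ARPE-19, became -431, -106, -58.3 and -44.3 under the same 4 settings in that order. At CDH1, -0.667 with all peaks, 100 kb gave 0.667, and covered bases became 221, where the wider window takes in further ARPE-19 peaks, among them 3 upstream of the gene with 4, 5 and 10 summit reads. For EPCAM the cause was not tested.

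Among the 8622 strongest peaks the ARPE-19-only regions numbered 4 and those called in both lines 0. ARPE-19 libraries with a peak at the start were 0 at CDH2, 0 at CDH11 and 0 at VIM. This setting shortened every list of both lines except that of H7 replicate 3. A threshold of 5 on -log10 q left 0 regions called in both lines, 0 H7 libraries at the start of CDH1, 2 ARPE-19 libraries at CDH11 and 1 at VIM. Requiring peaks to cover 50% of a merged region left 2 called in both lines, and 2 of 3 against 0 of 3 gave 3 H7-only regions. Genome-wide shares of the classes were determined for the main setting only, so the counts under the alternatives have no such share beside them. Within 5 kb, the start of GRHL2 had 1 ARPE-19 library, CDH11 2 H7 libraries and VIM 1 H7 library. The median summit height of the 15 named regions in 3 ARPE-19 libraries was 34.3 times the genome-wide background and 7.94 times by the authors' local fold.

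Leaving out each library in turn gave differences of 29 to 32.5 peaks over the 6 loci, -1.17 to -0.167 at CDH1, 1.33 to 1.83 at EPCAM, 5 to 6.5 at GRHL2, 12.5 to 14 at CDH2, 5.67 to 7.67 at CDH11 and 3.5 to 4 at VIM. It gave 24 to 27 ARPE-19-only regions, 0 to 3 H7-only regions (3 without H7 replicate 1) and 2 to 4 called in both lines (2 without ARPE-19 replicate 1). Covered bases then differed by -195 to -10.7 at CDH1, 210 to 471 at EPCAM, 1242 to 1664 at GRHL2, 4357 to 5331 at CDH2, 1901 to 2322 at CDH11 and 911 to 1011 at VIM, and the summit height was 30.9 to 35.1. With a replicate block (exact sign flips within pairs, smallest p 0.25) the difference over the 6 loci is 30.3 by construction (exact p = 0.25), and no call could be made with or without it. ARPE-19 peaks in the loci had 4 to 61 summit reads and H7 peaks 6 to 16.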
